A study of Mus musculus with 4 samples.

Results

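The genes described here were 170 long intergenic noncoding RNA (lincRNA) genes measured in mouse Neuro2A neuroblastoma cells. They were chosen from 49548 genes by annotated biotype and by a level averaging 10 or more normalised counts across the 4 libraries, leaving out by name Gm26870, Meg3, Rian, Mirg, H19, Gas5 and the small nucleolar RNA hosts named Snhg. Of 4255 lincRNA genes in the table, 3282 were at 0 in every library, 973 were above 0 in at least 1, and 176 reached the mean of 10, of which 6 were left out by name. The choice used the level over both groups together and not the difference between them. A gene near 0 in 1 group could still reach the mean of 10 through the other. The means of 116 members lay between 10 and 50.

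Both groups were stable Neuro2A lines with a doxycycline-inducible (Tet-On) transgene, kept under G418 and hygromycin B selection and given doxycycline at 1 µg/mL. The Prox1 group carried the homeodomain transcription factor Prox1 and the control group carried green fluorescent protein (GFP), with 2 libraries in each. Total RNA was sequenced from the 3′ end of polyadenylated transcripts on an Ion Proton instrument. The series title places the comparison in a study of Prox1 and axon outgrowth. The 2 transgenes were in separate lines, so effects of the line and of the transgene cannot be told apart. The labels do not state whether the 2 libraries of a group were grown as separate cultures, and p-values therefore reflect only library-to-library spread, possibly technical.

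LincRNAs are transcripts made from their own promoters between protein-coding genes, often spliced and polyadenylated like messenger RNA, but without a long reading frame. Some act in the nucleus, as scaffolds of nuclear bodies or as regulators of a chromosome or of a nearby gene, and for most no role is known. Many start beside a coding gene and run away from it, an arrangement called divergent.

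The deposited levels summed to between 6798014 and 7683100 normalised counts per library, and 18396 to 19811 genes were above 0. Prox1 itself, at 1304 and 2505 normalised counts with its transgene and at 2 and 3 without, matched the labels. Of 12 markers of neuroblastoma and sympathetic neurons, 11 had a mean of at least 10. Their summed level was 7627 and 6551 with Prox1 and 14950 and 14207 with GFP, and its part in the lincRNA results was not tested. Fibroblast markers summed to between 2 and 38, immune markers to between 0 and 5 and glial markers to between 47 and 104 normalised counts. A mean of at least 10 was reached by 1 of 7 fibroblast, 0 of 6 immune and 2 of 5 glial markers. Col1a1, Ptprc, Cd3e and Gfap were among those with means under 1. In bulk RNA, fewer cells of a kind and less RNA per cell cannot be told apart.

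Sequences of the lincRNAs with the largest changes are shown first, because several of these genes went from near 0 to a clear signal, or back, and most have no name beyond a clone number. Promoter windows, from 250 bases before to 50 bases after the annotated start, came from RefSeq (GRCm38.p6), which matched 94 of the members. The windows below belong to the largest rises and falls that had one. Capitals mark the letters CCAAT, read on the other strand as ATTGG; the palindrome CACGTG; and the core ACGTG contained in it, read on the other strand as CACGT. The Gm15389 window lies at chr1:107686750-107687049, + strand, and that of 2310043M15Rik at chr16:93794852-93795151, - strand. The EU599041 window lies at chr7:43213789-43214088, + strand, and that of 0610006L08Rik at chr7:74853761-74854060, - strand.
Gm15389: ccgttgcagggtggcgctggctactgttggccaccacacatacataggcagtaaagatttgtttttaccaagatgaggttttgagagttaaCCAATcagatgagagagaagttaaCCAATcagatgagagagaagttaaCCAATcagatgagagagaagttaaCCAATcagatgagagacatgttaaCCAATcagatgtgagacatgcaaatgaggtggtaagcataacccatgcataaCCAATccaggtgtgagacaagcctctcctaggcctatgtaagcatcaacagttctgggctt
2310043M15Rik: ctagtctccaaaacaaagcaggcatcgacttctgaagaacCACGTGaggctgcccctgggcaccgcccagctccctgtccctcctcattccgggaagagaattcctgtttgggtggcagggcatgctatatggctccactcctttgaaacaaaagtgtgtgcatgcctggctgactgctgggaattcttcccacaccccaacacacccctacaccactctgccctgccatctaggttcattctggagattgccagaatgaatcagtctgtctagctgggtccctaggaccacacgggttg
EU599041: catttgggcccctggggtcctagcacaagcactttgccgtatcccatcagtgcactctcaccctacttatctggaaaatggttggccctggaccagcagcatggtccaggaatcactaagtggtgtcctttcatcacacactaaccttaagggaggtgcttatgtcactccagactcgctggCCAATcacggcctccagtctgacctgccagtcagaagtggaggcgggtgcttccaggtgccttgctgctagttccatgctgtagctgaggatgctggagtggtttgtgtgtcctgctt
0610006L08Rik: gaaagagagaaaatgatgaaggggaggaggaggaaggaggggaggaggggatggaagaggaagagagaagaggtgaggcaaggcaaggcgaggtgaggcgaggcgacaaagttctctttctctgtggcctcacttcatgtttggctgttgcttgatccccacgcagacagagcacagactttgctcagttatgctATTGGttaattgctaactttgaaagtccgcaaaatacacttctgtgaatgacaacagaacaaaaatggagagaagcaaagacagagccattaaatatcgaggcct

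The Gm15389 window held 6 copies of CCAAT, most of them within a repeated unit, and the EU599041 and 0610006L08Rik windows held 1 each. The 2310043M15Rik window held CACGTG once. Over all windows, CCAAT on either strand was found in 6 of 10 windows of lincRNAs that rose, in 2 of 5 of those that fell, in 37 of 79 of the rest (46.8%) and in 37.9% of 27025 RefSeq windows. CACGTG was found in 1 of 10, 0 of 5 and 8 of 79 windows, against 7.24% of all. TATAAA was found in 0 of 10, 0 of 5 and 14 of 79 windows, against 14.2% of all, and ACGTG in 2, 1 and 21, against 19.7%. These matches are letters in a window and not sites.

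A 3′ library reads near the ends of transcripts, but reads counted for a gene need not come from its annotated end. They are shown for lincRNAs on which the results below turn, with the polyadenylation hexamer AATAAA or ATTAAA in capitals where one was present.
Gm44693: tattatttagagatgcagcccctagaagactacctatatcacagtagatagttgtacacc
Gm15389: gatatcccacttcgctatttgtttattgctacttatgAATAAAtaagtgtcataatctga
2310043M15Rik: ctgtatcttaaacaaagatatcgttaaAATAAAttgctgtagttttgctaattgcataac
5730420D15Rik: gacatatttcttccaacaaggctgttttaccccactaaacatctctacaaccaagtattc
Gm42743: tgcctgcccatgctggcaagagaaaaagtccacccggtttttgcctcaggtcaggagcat
RP24-365B9.2: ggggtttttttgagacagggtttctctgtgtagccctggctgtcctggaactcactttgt
Gm13431: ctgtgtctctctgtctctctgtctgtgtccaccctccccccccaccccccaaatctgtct
EU599041: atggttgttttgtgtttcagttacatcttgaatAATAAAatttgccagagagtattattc
5033428I22Rik: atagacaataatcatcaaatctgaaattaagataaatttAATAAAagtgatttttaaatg
Pvt1: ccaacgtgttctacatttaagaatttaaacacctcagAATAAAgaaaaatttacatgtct

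Of these 10 ends, those of Gm44693, 5730420D15Rik, Gm42743, RP24-365B9.2 and Gm13431 held no hexamer, and the other 5 held AATAAA. Transcripts with a hexamer were preferred, so this count describes that choice in part. Over the last 50 bases of any annotated transcript, 121 of 168 members (72.0%) held a hexamer, against 89.5% of 10893 protein-coding genes. The share was 11 of 25 (44.0%) among lincRNAs higher in Prox1 cells, 11 of 15 (73.3%) among those lower and 99 of 128 (77.3%) among the rest. A run of 10 A, another place where an oligo-dT primer can anneal, was searched over whole transcripts, without matching for their length. It was found in 20.0%, 6.67% and 20.3% of these sets and in 25.7% of the protein-coding genes. The part of these features in the changes was not tested.

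The question put to these genes was which lincRNAs differed between Prox1 and GFP cells, and whether the nearest protein-coding gene differed with them. Values for single libraries are given below in the order replicate 1, replicate 2. A gene was called when limma's moderated test on log2(normalised count + 1), adjusted by Benjamini-Hochberg over all 13290 genes that averaged 10 or more, gave an adjusted p under 0.05. By that test 26 lincRNAs rose (15.3% of 170, against 7.57% of all genes tested) and 15 fell (8.82%, against 8.41%). Together they were 41 of 170 (24.1%), against 16.1% of 10904 protein-coding genes. With a mean of at least 50, 22 of 54 lincRNAs (40.7%) were called, against 16.6% of protein-coding genes at that level. Below it, 19 of 116 (16.4%) were called, against 14.2%. In the authors' deposited table, 16 lincRNAs were higher and 5 lower at a DESeq adjusted p under 0.05 (9.41% and 2.94%), against 1.72% and 2.43% of all genes tested. The limma calls need all 4 libraries: with any 1 left out, none of the 170 passed after adjustment. At an unadjusted p under 0.05 in the limma fit to all 4 libraries, 72 of the 170 passed, against 4216 of 13290 genes tested.

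The median log2 difference (Prox1 minus GFP) of the 170 lincRNAs was 0.155, with quartiles of -0.543 and 0.956. Over all genes tested it was -0.002, with quartiles of -0.433 and 0.425. Differences of at least 4-fold on this scale were found in 22 lincRNAs (12.9%) and in 3.35% of all genes tested. The lincRNAs had fewer counts to be measured by, with a median of 26.4 normalised counts against 142 for all genes tested. On the log2(count + 1) scale the change of a low gene is understated, while its scatter between libraries is larger. The 4-fold shares were not matched for level, so the part of low counts in their difference was not tested. Despite these single changes, the 170 together held 0.245% and 0.246% of all normalised counts with Prox1 and 0.235% and 0.226% with GFP.

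**Figure D1:**
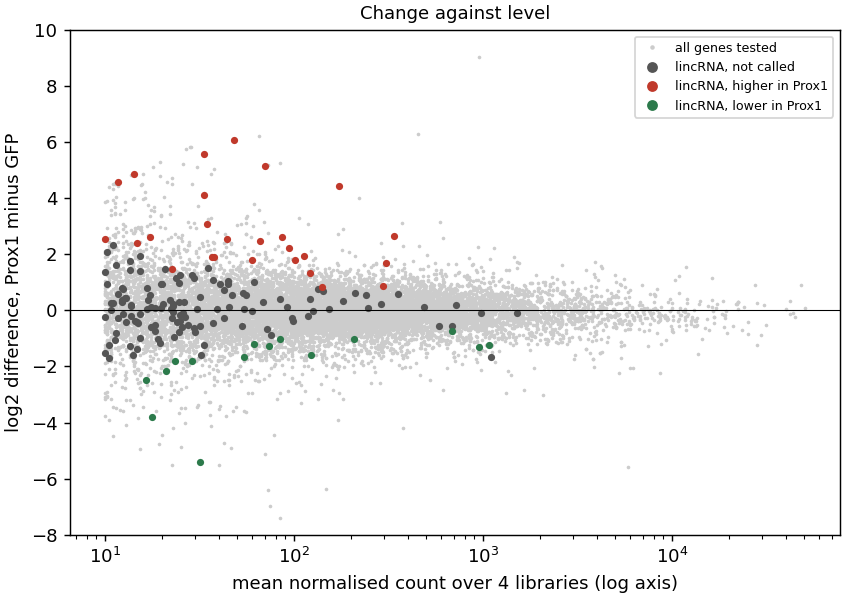
Log2 difference between Prox1 and GFP cells (vertical axis) against the mean normalised count over the 4 libraries (horizontal log axis). Each grey point is one of 13290 genes tested and each large point one of 170 lincRNAs; the 26 in red rose, the 15 in green fell, and those in dark grey were not called.

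The largest rises were lincRNAs that were almost silent in GFP cells, so they passed the level threshold through their Prox1 libraries. Gm44693 (chr8:5436984-5440990), a spliced transcript of unknown role far from its nearest coding gene, was at 79 and 113 normalised counts in Prox1 cells and at 1 and 0 in GFP cells. The ratio of means was 192, with an exact 95% counting interval of 34.1 to 7620 (limma, adjusted p = 0.000125). For Gm15389 (chr1:107687008-107693514) the counts were 65 and 67 against 1 and 0, 132-fold apart (23.3 to 5250; limma, adjusted p = 0.000343). The groups of libraries were far apart for both genes. Over all 170, the groups did not overlap for 103 (60.6%), against 58.8% of all genes tested. The interval covers counting error only.

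2310039L15Rik was at 32 and 25 normalised counts with Prox1 and had none with GFP; set against a floor of 3 counts per library, it was at least 9.50-fold higher (limma, adjusted p = 0.00252). Gm2762 was at 28 and 19 against 0 and 0, which by the same floor was at least 7.83-fold higher (limma, adjusted p = 0.00426). These 2 were the called lincRNAs with no count in either GFP library, and they passed the level threshold through the Prox1 libraries alone. They were chosen for mention after their values were seen.

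5730420D15Rik (chr10:95417375-95428640) rose beside a coding gene that was not called. It was at 419 and 248 normalised counts in Prox1 cells and at 21 and 9 in GFP cells, a ratio of means of 22.2 and a log2 difference of 4.45 ± 0.406 (SE, n = 2 per group; limma, adjusted p = 5.82e-05). It starts 195 bases from Socs2, which encodes a suppressor of cytokine signalling, and runs the other way. Socs2 was at 310 and 251 against 267 and 232, a log2 difference of 0.16 ± 0.23 (limma, adjusted p = 0.673). The lincRNA's groups were far apart, and those of its divergent partner overlapped.

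The start shared by this pair is shown as the lincRNA's promoter window (chr10:95417125-95417424, + strand), with CpG dinucleotides in capitals, since divergent starts commonly lie in CpG islands.
5730420D15Rik: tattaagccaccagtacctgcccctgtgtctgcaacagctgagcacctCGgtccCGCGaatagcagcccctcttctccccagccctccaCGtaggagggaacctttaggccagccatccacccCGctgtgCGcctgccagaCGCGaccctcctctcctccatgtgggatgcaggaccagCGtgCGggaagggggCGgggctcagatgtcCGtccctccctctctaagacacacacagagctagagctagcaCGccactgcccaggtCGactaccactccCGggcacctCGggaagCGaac

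The window held 17 CpG at 64.0% GC. Windows of lincRNAs divergent from a coding gene within 5 kb held a median of 33 CpG at 70.0% GC (21 windows), against 9 CpG and 52.0% GC for the other 73 lincRNAs and 7 CpG for all RefSeq windows.

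2310043M15Rik (chr16:93792150-93794888) was at 112 and 165 normalised counts in Prox1 cells and at 4 and 2 in GFP cells, a ratio of 46.2 (limma, adjusted p = 6.3e-05). It lies on the opposite strand within Dopey2, which was at 28 and 35 against 14 and 5 and just missed the threshold (limma, adjusted p = 0.0509). Whether strand was used in counting is not given in the sources used here, so reads of overlapping genes may be shared. Gm26764 lies within Sptlc2, a subunit of serine palmitoyltransferase, the first enzyme of sphingolipid synthesis. Its counts were 91 and 38 against 2 and 3, 25.8-fold higher (limma, adjusted p = 0.00104), while Sptlc2 was at 155 and 183 against 154 and 93 (adjusted p = 0.275).

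RP24-365B9.2, named Gm45833 in GENCODE M21, was at 707 and 468 normalised counts in Prox1 cells and at 98 and 82 in GFP cells, a ratio of 6.53 (limma, adjusted p = 8.27e-05). A small nucleolar RNA gene on the same strand, Gm23299, carries exactly the same 4 values in the table. The lincRNA and the small RNA cannot be told apart here. D930048G16Rik, which lies in the same direction at the start of the splicing factor gene Srrm2, had 36 and 25 counts against 4 and 4, 7.62-fold higher (limma, adjusted p = 0.00961). Srrm2 was at 730 and 772 against 810 and 850 (adjusted p = 0.67).

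Gm42743 (chr3:96269721-96279001) was at 71 and 55 normalised counts in Prox1 cells and at 7 and 6 in GFP cells, a ratio of 9.69 (limma, adjusted p = 0.00128). It lies at one end of a cluster of replication-dependent histone genes, whose messenger RNAs usually end in a stem-loop and not in a poly(A) tail. The histone genes Hist2h3c1, Hist2h2aa1, Hist2h2aa2, Hist2h3c2 and Hist2h2be, between 21 and 46 kb away, rose with it. Hist2h3c1, which encodes histone H3, was at 85 and 134 against 13 and 12 (log2 difference 3.0 ± 0.39, limma, adjusted p = 0.000546). Bola1, a mitochondrial protein gene at 50012 bases, was at 214 and 193 against 65 and 46 (limma, adjusted p = 0.0014).

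Hist2h2bb, which overlaps Gm42743 itself, was at 12 and 13 against 10 and 6 and was not called (limma, adjusted p = 0.537). Sv2a, a synaptic vesicle protein gene beyond Bola1, was at 105 and 97 against 121 and 113 (adjusted p = 0.633). Histone genes of this cluster are near-identical copies, so their reads may be divided uncertainly among them. These neighbours were looked at after the rise of Gm42743 was seen.

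On chromosome 10, 2310039L15Rik and 5730420D15Rik lie 54159 bases apart and both rose. The coding genes around them, Cradd, Socs2, Mrpl42 and Ube2n, had log2 differences between -0.18 and 0.63 and none was called by limma. Cep83os, elsewhere on the chromosome and divergent from the centriole gene Cep83 by 177 bases, was at 79 and 102 against 45 and 14 normalised counts (ratio 3.07, limma, adjusted p = 0.0221). Cep83 was at 74 and 67 against 71 and 65 (adjusted p = 0.93).

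**Figure D2:**
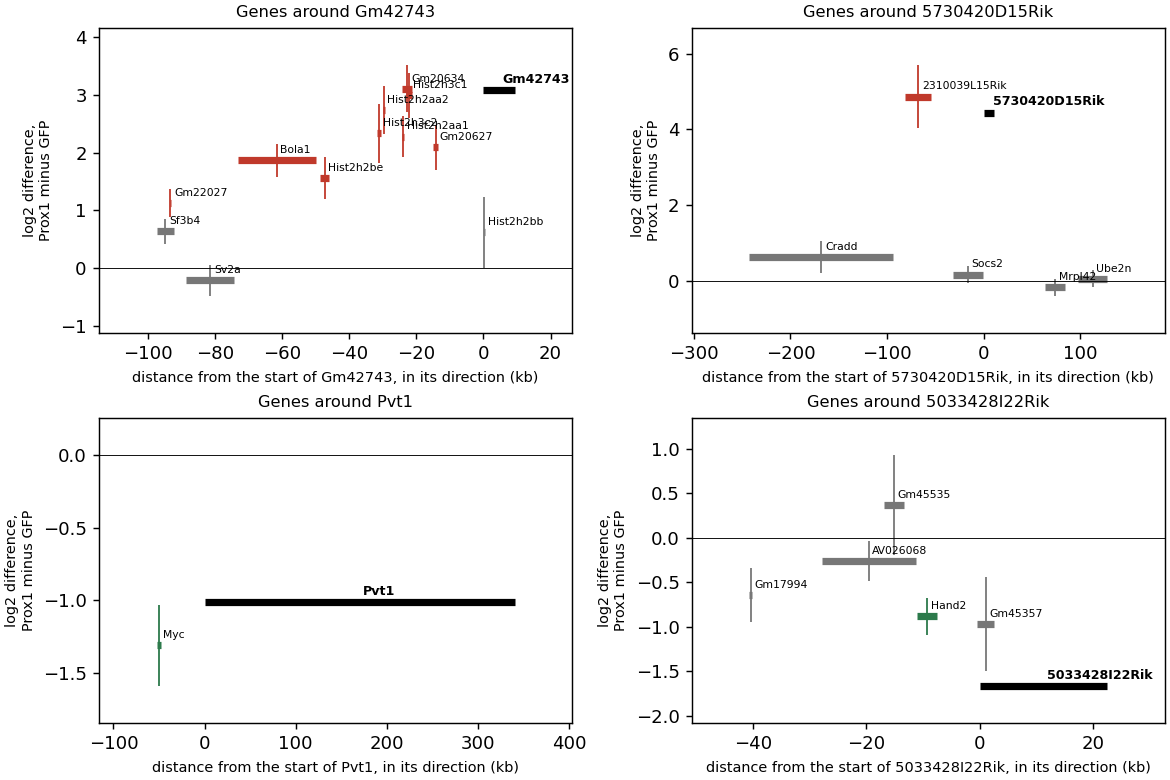
Log2 difference between Prox1 and GFP cells (vertical axis) for tested genes within 100 kb of 4 lincRNAs, drawn at their distance from the lincRNA's start in its own direction (horizontal axis, kb). Horizontal bars span each gene, vertical lines are 1 SE of the fit, and red, green and grey mark genes that rose, fell or were not called, with the lincRNA in black. Around Gm42743 a group of histone genes lies well above 0, around 5730420D15Rik the coding genes lie near 0, and beside Pvt1 and 5033428I22Rik the genes Myc and Hand2 lie below 0.

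The other called rises were smaller. Over the 22 lincRNAs with a plain ratio (both groups above 3 counts in sum), the ratio of means ran from 1.78 to 46.2, with a median of 5.13. Gm16755 was at 155 and 145 against 28 and 20 normalised counts, Gm45184 at 114 and 112 against 21 and 18, and Gm26909 at 136 and 175 against 41 and 25. These 3, named after their values were seen, showed close replicates and groups that did not overlap. 6720427I07Rik was at 418 and 514 against 168 and 124, and the microRNA gene Mirlet7d within it was at 419 and 520 against 168 and 125, so the 2 cannot be told apart. Gm6712 was at 377 and 383 against 189 and 230.

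The annotated ends of Gm16755, Gm45184 and B230312C02Rik, the last of which fell (55 and 55 against 124 and 102), shared a stretch of 32 bases, shown in capitals. The stretch resembles the tail of the B2 family of mouse short interspersed repeats.
Gm16755: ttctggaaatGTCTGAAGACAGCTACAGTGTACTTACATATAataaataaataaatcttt
Gm45184: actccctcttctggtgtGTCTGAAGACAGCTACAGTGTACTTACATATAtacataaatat
B230312C02Rik: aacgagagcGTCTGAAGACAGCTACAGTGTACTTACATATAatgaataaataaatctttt

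The last 15 bases of that stretch, on either strand, were found in an annotated transcript of 6 of 25 lincRNAs that rose, 1 of 15 that fell and 7 of 128 of the rest (5.47%). Among protein-coding genes tested, 2.92% held it. The stretch was picked from 3 called lincRNAs, so its share among called lincRNAs is a description of that choice in part. Reads that end in a repeat may also match other copies of it.

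**Figure D3:**
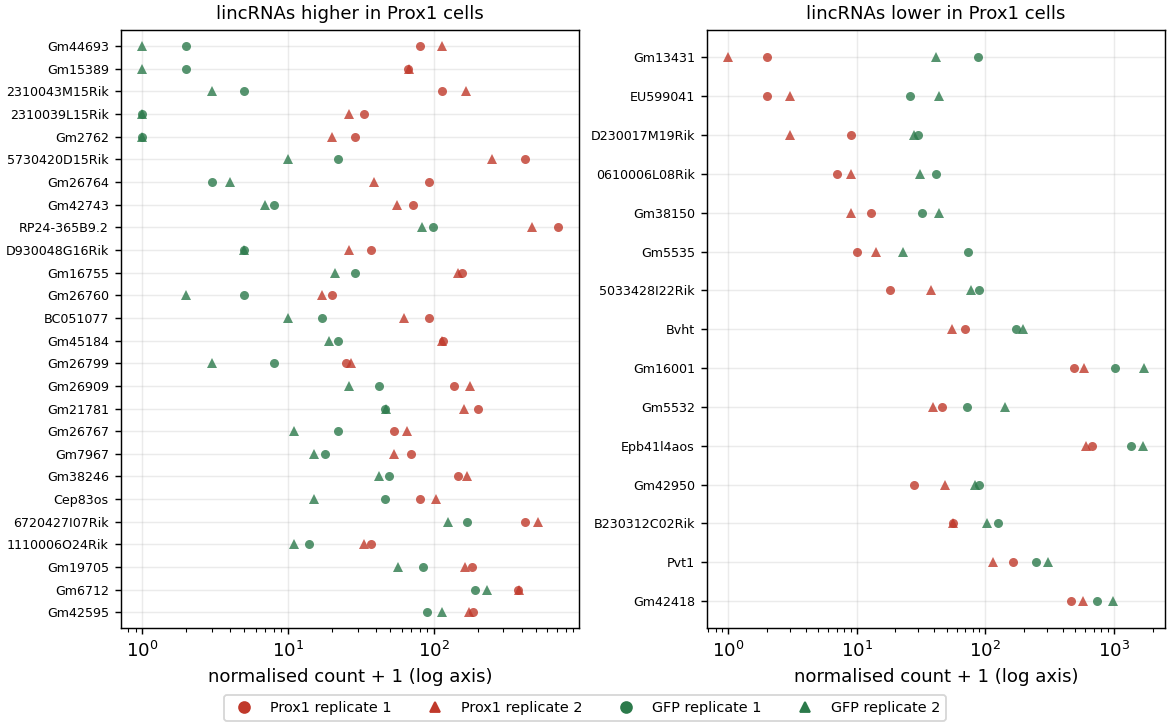
Normalised count + 1 (horizontal log axis) of each called lincRNA in each library; red marks Prox1 and green GFP libraries, with circles for replicate 1 and triangles for replicate 2. The left panel holds the 26 that rose and the right panel the 15 that fell. In each row all Prox1 points lie on one side of all GFP points, as for 58.8% of all genes tested.

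Among the lincRNAs that fell, Gm13431 (chr2:36216777-36222934) changed most. It was at 1 and 0 normalised counts in Prox1 cells and at 86 and 40 in GFP cells, 126-fold lower in Prox1 cells with an exact 95% counting interval of 22.2 to 5020 (limma, adjusted p = 0.000565). EU599041 was at 1 and 2 against 25 and 43, 22.7-fold lower (7.43 to 113; limma, adjusted p = 0.00328). Neither has a known role, and for both the Prox1 libraries were at or near 0, so both passed the level threshold through the GFP libraries.

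0610006L08Rik was at 6 and 8 normalised counts in Prox1 cells and at 40 and 30 in GFP cells (5.0-fold lower). Gm38150 was at 12 and 8 against 31 and 43 (3.7-fold lower), and Gm5532 at 45 and 38 against 71 and 142 (2.57-fold lower). Gm5535 was at 9 and 13 against 72 and 22, and its GFP libraries lay far from each other (4.27-fold lower; limma, adjusted p = 0.0496). Over the 13 lincRNAs that fell and had a plain ratio, the ratio ran from 1.67 to 5.6 with a median of 2.57.

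The called lincRNAs among the 10 with the highest mean counts all fell. Epb41l4aos (named Epb41l4a antisense for its neighbour) was at 676 and 608 normalised counts in Prox1 cells and at 1369 and 1676 in GFP cells, 2.37-fold lower (log2 difference -1.24 ± 0.212, SE, n = 2 per group; limma, adjusted p = 0.00262). A small nucleolar RNA gene inside it on the same strand, Gm23639, carried nearly the same counts (698 and 618 against 1407 and 1737), so the reads cannot be assigned to the lincRNA. Gm16001 was at 486 and 587 against 1023 and 1709, 2.55-fold lower (limma, adjusted p = 0.005, or 0.0649 without a variance trend). It starts 33 bases from Ogfod2, which was at 93 and 72 against 129 and 134 and was not called (adjusted p = 0.117).

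Gm42418 was at 460 and 572 against 736 and 991 (1.67-fold lower, limma, adjusted p = 0.0458). Gm26917, which ends less than 1 kb from it on chromosome 17, was at 136 and 1431 against 1656 and 1174 and was not called (adjusted p = 0.126). Both lie where the mouse genome carries ribosomal RNA sequence, so their counts may hold ribosomal RNA reads, which was not tested. Gm26917 was one of 4 lincRNAs (2.35%) whose Prox1 libraries differed at least 4-fold from each other, against 0.775% of all genes tested. In GFP cells 2 lincRNAs (1.18%) did so, against 0.722%.

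Per base of counted length, the highest lincRNA levels in the deposited per-length signal (mean over 4 libraries) were those of Epb41l4aos (0.851, reads shared with Gm23639), Gm26917 (0.814), Gm16001 (0.741), Malat1 (0.6) and Gm42418 (0.55). BC002059 (0.39), Xist (0.272) and Neat1 (0.156) were lower on that scale, and Pvt1 (0.0235) far lower. The other members among the 10 with the highest mean counts were Gm10605 (0.195) and 1810058I24Rik (0.183). BC002059 was at 1165 and 754 against 871 and 1118 normalised counts, Gm10605 at 462 and 555 against 412 and 523, and 1810058I24Rik at 539 and 575 against 816 and 823, and none of the 3 was called (limma, adjusted p = 0.864, 0.742 and 0.0808). The groups overlapped for the first and second and not for 1810058I24Rik.

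A known role was listed for 18 members, with the list and its groups written from general knowledge. Of the 18, 3 (16.7%) were called, all lower in Prox1 cells, a share near the 16.1% of protein-coding genes. The members were 2 RNAs of nuclear bodies, 3 of the X inactivation centre, 7 linked to chromatin, p53 or growth, 4 neural and 2 microRNA hosts. All 3 calls lay in the group linked to chromatin, p53 or growth, with 3 of 7 lower (42.9%, against 8.41% of all genes tested) and 0 higher. Each of the 3 had a mean of at least 50, and 16.7% of the 54 members at that level were called lower, these 3 included. The median log2 difference of that group was -1.014. In the authors' deposited table, Bvht and Epb41l4aos passed (DESeq, adjusted p = 0.0215 and 0.0426) and Pvt1 did not (adjusted p = 0.16). In the other groups limma called 0 of 11, and 0 passed in the authors' deposited table. At an unadjusted p under 0.05, 2 of the 11 passed, against 4216 of 13290 genes tested. Group medians lay between -0.475 and 0.331.

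Pvt1, a lincRNA beside the oncogene Myc that is gained together with it in tumours, was at 162 and 113 normalised counts in Prox1 cells and at 245 and 307 in GFP cells, 2.01-fold lower (limma, adjusted p = 0.0208). Bvht, known in the mouse for a role in cardiac commitment, was at 69 and 54 against 172 and 197, 3.0-fold lower (limma, adjusted p = 0.00312). Epb41l4aos was the third, and its counts cannot be told apart from those of Gm23639. In each case both Prox1 libraries lay below both GFP libraries, as they did for 29.9% of all genes tested.

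Malat1, an abundant RNA of nuclear speckles, had 2793 and 577 normalised counts in Prox1 cells against 1615 and 1104 in GFP cells, and the Prox1 libraries spanned both GFP values (limma, adjusted p = 0.94). Neat1, the scaffold of paraspeckles, was at 515 and 430 against 597 and 812; the groups did not overlap and the difference was not called (log2 difference -0.56 ± 0.229, adjusted p = 0.11). Xist, which coats the inactive X chromosome, was at 477 and 1117 against 586 and 692 (adjusted p = 0.714). Jpx and Ftx, both of the X inactivation centre, had log2 differences of -0.15 and -0.13 (adjusted p = 0.86 and 0.902).

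Lhx1os, divergent from the LIM homeobox gene Lhx1 by 125 bases, was at 25 and 15 normalised counts in Prox1 cells and at 49 and 45 in GFP cells (2.35-fold lower; limma, adjusted p = 0.065). Lhx1 was at 12 and 16 against 58 and 38 and fell (log2 difference -1.69 ± 0.446, adjusted p = 0.0221). Lncpint, a target of p53, was at 8 and 2 against 14 and 18 (adjusted p = 0.126), and Dancr, which restrains differentiation of progenitor cells, at 53 and 33 against 57 and 69 (adjusted p = 0.305). Both had every Prox1 library below every GFP library without being called, an order found in 29.9% of all genes tested.

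The other members of the list lay closer together. Lockd, found downstream of the cell cycle inhibitor gene Cdkn1b, was at 114 and 66 against 95 and 118. Mir17hg, the host of an oncogenic microRNA cluster, was at 76 and 76 against 68 and 56, and Mir124a-1hg, a host of the neuronal microRNA miR-124, at 23 and 26 against 14 and 25. Lncenc1, 1700020I14Rik, 6330403K07Rik and 2810032G03Rik had log2 differences of 0.21, 0.25, -0.52 and -0.43 and were not called (limma, adjusted p between 0.495 and 0.832). A p above the threshold does not show that the groups were equal.

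**Figure D4:**
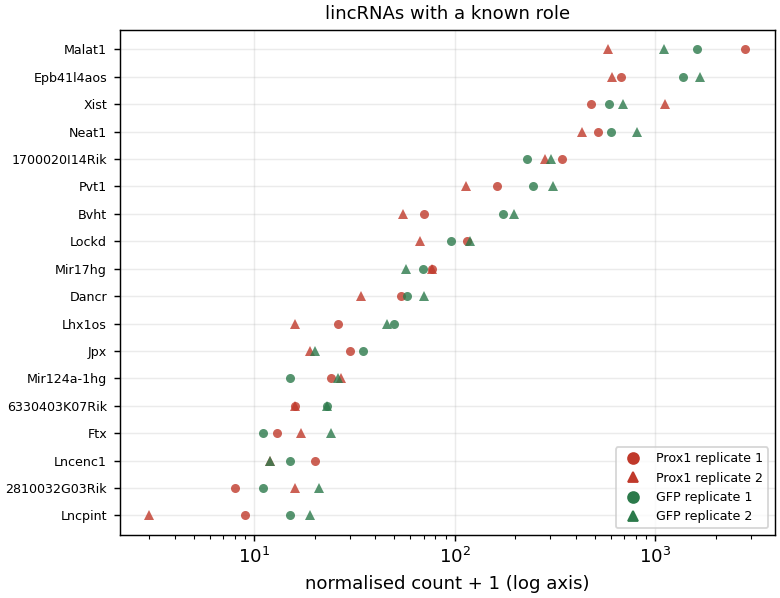
Normalised count + 1 (horizontal log axis) in each library for the 18 lincRNAs with a known role, ordered by mean level; red marks Prox1, green GFP, circles replicate 1 and triangles replicate 2. Epb41l4aos, Pvt1 and Bvht have both Prox1 points to the left of both GFP points, while Malat1 and Xist have Prox1 points on both sides of the GFP points.

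The threshold of a mean of 10 divided similar genes. Just inside it, Gm26760 was at 19 and 16 against 4 and 1 and Gm28151 at 4 and 15 against 6 and 15, each with a mean of 10. Just outside, Gm807 was at 12 and 15 against 6 and 5 (mean 9.5) and A830039N20Rik at 22 and 0 against 6 and 9 (mean 9.25).

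The nearest protein-coding gene lay within 5 kb of 87 lincRNAs and within 50 kb of 139, at a median gap of 4515.5 bases. The pair was divergent in 48 cases (32 within 5 kb), overlapping in 30, convergent in 24, and on the same strand with the lincRNA upstream in 35 and downstream in 33. Some overlaps rest on very long annotated spans, which give a gap of 0. Gm20388 (chr8:119910841-124345722) covers RP24-365B9.2 and Chd1 (chr17:15704967-17394898) covers Gm6712, and both of these lincRNAs rose. LincRNAs that rose had a median gap of 1214 bases, those that fell 21930 and the rest 6415. Of 41 called lincRNAs, 26 had a nearest coding gene that lay within 50 kb and was tested. In 3 of these 26 pairs (11.5%) the coding gene was called in the same direction, all lower, and in 1 it was called in the opposite direction. For called protein-coding genes and their own nearest coding gene, measured in the same way, the shares were 15.5% and 4.72%.

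Gm13431 and Ptgs1, which encodes cyclooxygenase 1, were the pair with the largest joint fall. Ptgs1 lies 7492 bases downstream on the same strand and was at 62 and 47 normalised counts in Prox1 cells and at 181 and 167 in GFP cells (log2 difference -1.67 ± 0.287, SE, n = 2 per group; limma, adjusted p = 0.00266). Mrrf and Rbm18, on the other side of Gm13431, were not called (limma, adjusted p = 0.996 and 0.141).

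5033428I22Rik (chr8:57332118-57354580) lies 7485 bases downstream of Hand2, a transcription factor gene of sympathetic neurons and of the heart. The lincRNA was at 17 and 37 normalised counts in Prox1 cells and at 88 and 76 in GFP cells, 3.04-fold lower (limma, adjusted p = 0.0161). Hand2 was at 1187 and 1326 against 2423 and 2195 (log2 difference -0.88 ± 0.21, adjusted p = 0.014). Gm45357, another lincRNA on the opposite strand beside Hand2, was not called (log2 difference -0.97, adjusted p = 0.233). Hand2 is also one of the markers summed above.

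Pvt1 (chr15:62037986-62378096) and Myc formed the third pair. Myc, 47612 bases away on the same strand, was at 78 and 59 normalised counts in Prox1 cells and at 178 and 162 in GFP cells (log2 difference -1.31 ± 0.281, limma, adjusted p = 0.00824). Both genes had every Prox1 library below every GFP library, as did 29.9% of all genes tested. In the authors' deposited table, Pvt1 (adjusted p = 0.16) and 5033428I22Rik (adjusted p = 0.114) did not pass, and the pair of Gm13431 and Ptgs1 did. Fitted without a variance trend, Pvt1 (adjusted p = 0.0881) and 5033428I22Rik (adjusted p = 0.0585) also missed limma's threshold. The opposite pair was Gm26767, at 52 and 64 against 21 and 10 (ratio 3.74, adjusted p = 0.0133), and Slc25a36, a mitochondrial nucleotide carrier at 1532 bases. Slc25a36 was at 458 and 295 against 622 and 658 (limma, adjusted p = 0.0413).

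Within 5 kb, both genes were called in 1 pair, that of Gm26767 and Slc25a36, in the opposite direction. Of 20 called lincRNAs within 5 kb of a tested coding gene, 0 had it called in the same direction by limma, against 15.9% of protein-coding pairs. At an unadjusted p under 0.05 of the coding gene, 4 of the 20 pairs had the same direction, and 0 pairs did in the authors' deposited table. That unadjusted threshold was passed by 3526 of 10904 protein-coding genes tested, in either direction. The 8 called lincRNAs in divergent pairs within 5 kb included 6 that rose, and 0 of the 7 coding partners tested were called (3 at an unadjusted p under 0.05). For called protein-coding genes in divergent pairs within 50 kb, a wider window, the neighbour was called in the same direction in 15.2% and in the opposite in 5.43%. With 7 partners, a count of 0 is not far from these shares. Rab35, 92 bases from 1110006O24Rik (36 and 32 against 13 and 10), was at 180 and 218 against 215 and 172. Rad18, a DNA repair gene 91 bases from Gm26799 (24 and 26 against 7 and 2), was at 205 and 176 against 194 and 200. Zbtb2 and Vsig10, partners of Gm21781 and BC051077, came nearest to a call among these 7, both higher in Prox1 cells (limma, adjusted p = 0.0527 and 0.0567).

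None of the 9 coding genes that overlap a called lincRNA was called either (0 of 9), while 8 of those lincRNAs rose. For called protein-coding genes overlapping their nearest coding gene, that neighbour was called in the same direction in 19.9% and in the opposite in 3.38%. With 9 pairs, a count of 0 is not far from these shares. Polb, a DNA repair polymerase gene that overlaps Gm26909, was at 794 and 708 against 797 and 878. Mrpl12, a mitochondrial ribosome gene that overlaps Gm16755, was at 1619 and 2159 against 1720 and 2193. In both, the groups of the coding gene overlapped. At an unadjusted p under 0.05, 1 of the 9 would pass, and 0 did in the authors' deposited table.

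Across the 102 lincRNAs whose nearest coding gene was within 50 kb and tested, the 2 log2 differences had a Pearson r of 0.412 and a Spearman rho of 0.31, and 60 pairs (58.8%) had the same sign. For 7110 protein-coding genes and their nearest coding gene, r was 0.174, rho was 0.144 and 54.4% had the same sign. The points are genes within the same 4 libraries and not independent replicates, and overlapping pairs may share reads. By layout, r and rho were 0.453 and 0.405 in divergent pairs (n = 35) and 0.412 and 0.164 in overlapping pairs (n = 26). They were 0.467 and 0.591 with the lincRNA downstream on the same strand (n = 18) and 0.672 and 0.173 with it upstream (n = 11). In convergent pairs the 2 measures differed in sign, at -0.176 and 0.119 (n = 12).

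Wider stretches around called lincRNAs were mixed. Within 100 kb of lincRNAs that rose, 85 pairs with tested coding genes held 10 coding genes called higher (11.8%) and 7 lower (8.24%), with a median log2 difference of 0.04, against 7.53% and 8.59% of all protein-coding genes tested. Of the 10, 6 lay around Gm42743, and without that locus 76 pairs held 4 higher (5.26%) and 7 lower (9.21%). Within 100 kb of those that fell, 35 pairs held 1 higher (2.86%) and 4 lower (11.4%), with a median of -0.25. Sptlc1, the partner subunit of Sptlc2, lies 16292 bases from Gm2762 and rose (545 and 577 against 213 and 297; log2 difference 1.15 ± 0.23, limma, adjusted p = 0.0059).

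**Figure D5:**
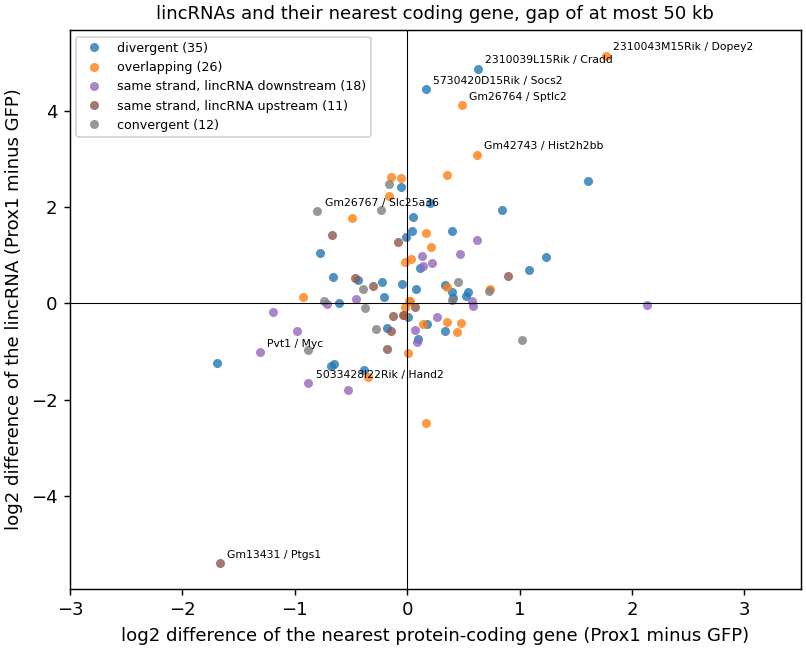
Log2 difference between Prox1 and GFP cells of each lincRNA (vertical axis) against that of its nearest protein-coding gene (horizontal axis), for 102 pairs at a gap of at most 50 kb with both genes tested. Each point is a pair, coloured by layout with the number of pairs in brackets; Gm13431 and Ptgs1 lie at the lower left, and 5730420D15Rik, Gm26764 and 2310039L15Rik lie high above partners that were not called.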

How the data were processed

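The series held 2 Prox1 and 2 GFP libraries, made as QuantSeq 3′ libraries per the labels' protocols. The authors deposited log2 normalised counts per gene, a per-length signal and their own p-values, with the DESeq tool and the mm10 build named in the submitters' processing notes. The aligner, the gene annotation and any use of strand are not recorded in the labels or headers. GC content is a fraction per the file headers. Undoing log2(x + 1) gave whole numbers for 100% of values (largest relative deviation 3.47e-09), so the deposited log2 values were rounded after normalisation and are not raw counts. An edgeR test planned for raw counts was therefore not run. Depth was estimated from which whole values occur, at 5910000 to 9610000 reads per library. No columns of other samples were found.

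The per-length signal implied a counted length for each gene, a multiple of 1254 bases (within 5) for 89.7% of lincRNA genes above 0 and 2.49% of protein-coding genes. This length could exceed the annotated gene: for Gm38150 it was 1254 bases, against an annotated transcript of 452. Counts may therefore hold reads from outside the annotated lincRNA. Counts of mitochondrial mt- genes were 0, so that measure of RNA quality gave no value.

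limma 3.58.1 in R 4.3.3 (eBayes with trend, two-sided) was fitted to log2(normalised count + 1) of 13290 genes with a mean of at least 10, with Benjamini-Hochberg adjustment, and was tested on simulated data. Tables were made with Python 3.11.15, pandas 2.3.3, numpy 2.4.6 and scipy 1.17.1. An exact permutation test of 2 against 2 libraries cannot go below p = 0.333 and was not used. Ratios are of group means. Where a group held 1 to 3 counts in sum the ratio has an exact 95% counting interval, and where it held 0 a floor of 3 counts per library was used. Neighbours were taken from the table's coordinates by the smallest gap between gene spans. Promoter windows were from RefSeq and transcript ends from GENCODE M21, in which 168 members were found.

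Named genes were members with a known role, the 8 members that rose most and the 8 that fell most (called, groups not overlapping, higher group averaging 30 or more), the 6 nearest called neighbour pairs in each direction, the 10 highest means, the 2 members on each side of the level threshold, and Prox1. The rule left the other genes named above as chosen after their values were seen. The members, the lists and the tests were chosen with earlier results of these data known. Alternatives covered scaling, the minimum level, the pseudocount, the variance trend, a replicate block, each library left out, the neighbour window and the authors' p-values.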

Additional observations from a re-analysis of the deposited data

How the results depend on the processing

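The calls rested on all 4 libraries: with any of them left out, limma called no lincRNA and no pair with its nearest coding gene. The lone library of a group is then assumed to vary like the other group. The median log2 difference stayed between 0.127 and 0.287. Without a minimum level limma again called 0 higher, 0 lower and 0 pairs. At an unadjusted p under 0.05, 37 were then higher and 21 lower, against 47 and 25 in the main fit. Every gene above 0 in any library then enters the adjustment. With a minimum mean of 50, 13 of 54 were higher and 9 lower, since fewer were tested. Without a variance trend 9 were lower, 7 of them among the 15; of the named lincRNAs, Gm16001, Pvt1, 5033428I22Rik, Gm5532, Gm5535 and Gm42418 then missed the threshold (adjusted p 0.0585 to 0.153). In the authors' deposited table, 16 were higher, 5 lower and 1 pair agreed in direction. Pairs in the same direction numbered 5 under TMM scaling, under cyclic loess scaling and with the nearest tested coding gene, 6 with a pseudocount of 5, and 0 in a window of 5 kb. Except where a setting changed what was tested, the cause was not tested.

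With replicate number as a block, 30 were higher, 17 lower and 5 pairs matched. The numbers are shared by name only: deviations of same-numbered libraries had a correlation of -0.051 over 13290 genes, so the pairing is not shown by the data. Without lincRNAs that overlap a coding gene or share all counts with another gene, an alternative chosen after seeing the data, 18 of 139 were higher and 14 lower. Only exactly equal counts were taken out, so Epb41l4aos, with counts close to those of Gm23639, stayed in. Under TMM and cyclic loess scaling, 26 and 26 of the 170 were higher and 15 and 16 lower, and 0 called lincRNAs changed sign in any refit. With 2 libraries per group the standard error of a log2 difference was 0.204 for 1810058I24Rik and 0.758 for the low Gm26760.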

Other observations

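Other lincRNAs differed widely between libraries of one group. 1700031P21Rik was at 9 and 43 normalised counts in Prox1 cells and at 5 and 4 in GFP cells (limma, adjusted p = 0.094). 4930555A03Rik was at 8 and 47 against 29 and 34, Gm26910 at 10 and 16 against 13 and 1, and Gm36445 at 19 and 14 against 0 and 11. None of these 4 was called.

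The annotation of some of the 170 has changed since the table was made. In GENCODE M21, 157 were still lincRNA genes, 5 were transcripts of bidirectional promoters, 2 were antisense, 1 was a pseudogene and 3 (6330403K07Rik, Kantr and Gm42517) were protein-coding. The antisense genes were 2310043M15Rik, which rose, and Gm26782. Of the 168 found, 27 had a single exon and 141 had at least 2, with Ftx the highest at 17 exons.

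Gm29362 and Gm26532 each carried the same 4 values as an overlapping or nearby microRNA gene, Mir3068 and Mir24-2, so these counts cannot be assigned to the lincRNA or to the microRNA. Neither was called.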
